A study of Mus musculus with 2 samples.

Results

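The 39 genes described here build and serve the primary cilium: subunits of the intraflagellar transport (IFT) trains and their motors, the BBSome and its chaperonin-like assembly factors, the transition zone, and 3 ciliary membrane proteins tied to Sonic hedgehog (Shh) signaling. They were chosen by name, not by any measured value, though with earlier results of these data known. The assay was ATAC-seq, which reads open chromatin through adapters that Tn5 transposase leaves in accessible DNA. The cells were sorted live from mouse embryonic stem (ES) cells differentiated to neural progenitors (NPs). The ES cell line, Olig2-mKate2, carries a red fluorescent reporter behind Olig2, and mKate2-positive cells were sorted at day 5. Cells had been exposed to 100 nM SAG, an agonist of Smoothened in the Shh pathway, and to 100 nM retinoic acid (RA), and 50000 cells entered each transposition. There was 1 group, LIVE_ATAC, with 2 replicates, so no condition was contrasted with another. The labels do not say whether the replicates came from separate differentiations, and the spread between them may be technical. Both came from a single reporter line, grown on mouse fibroblast feeders before differentiation, and the sort selects cells by Olig2 reporter activity alone. According to the paper, cells sorted this way also include motor neurons that have just differentiated and some cells positive for both OLIG2 and NKX2.2.

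Counts covered 119502 consensus intervals of mm10. Of the 39 genes, 38 were annotated as protein-coding in GENCODE M21, out of 21938 such genes, and Tctn2, annotated there as a processed transcript, is given apart. The 38 genes held 137 intervals: 36 over a transcription start site (TSS intervals) and 101 distal ones that had a start of these genes as the nearest. A gene's promoter density is the normalised count of its TSS interval per kb of interval, given as the mean ± SD over 2 replicates. The libraries held 31876165 and 31672240 counts, of which 63962 and 63303 fell in the 137 intervals, and none of those intervals was without counts in either library.

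The primary cilium is a single antenna of microtubules that most vertebrate cells grow from a basal body. Kinesin-2 carries IFT-B trains toward the tip, dynein-2 carries them back with IFT-A, the BBSome carries membrane proteins out of the cilium, and the transition zone is the gate at its base. In the neural tube, Shh receptors and Smoothened move in and out of this compartment, and loss of IFT or transition zone genes alters ventral patterning. RFX transcription factors, which bind the X-box as a pair of sites, are known regulators of cilium genes in many animals.

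The identity of the cells was checked against marker genes. Over all protein-coding genes, 61.5% had a TSS interval, so the presence of one alone says little about identity. All 5 progenitor markers had a TSS interval, with densities of 946 ± 23.2 for Olig2, 1452 ± 27.3 for Nkx6-1, 862 ± 25.8 for Sox2, 1498 ± 73.3 for Sox1 and 187 ± 3.57 for Pax6. Among 4 pluripotency markers, Nanog, Pou5f1 and Dppa5a had none and Zfp42 stood at 237 ± 4.87, above Pax6. Accessibility is not expression, and other neighbouring identities were not at 0. Of the motor neuron markers, 4 of 5 had a TSS interval (Isl1 at 1087 ± 36.9, Mnx1 at 557 ± 52.1, Lhx3 at 399 ± 3.40, Slc18a3 at 300 ± 12.2, Chat none). Of the p3 and floor plate markers, 1 of 3 had one (Nkx2-2 at 484 ± 9.56, Foxa2 and Shh none). Of the fibroblast markers, 3 of 5 had one, between 123 and 459, and Dcn (248) and Twist1 (459) were also above Pax6. The part of such cells in the values below was not tested.

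Among the motifs searched in the promoters, the X-box had the largest ratio between these genes and others, so its sites are shown first. RefSeq gave a promoter window, from 250 bases before the start to 50 after it, for 35 of the 39 genes (37 windows, GRCm38.p6, the assembly of mm10), and all 37 were identical to the genome. Ift122, Ift80, Ift81 and Tmem67 were not in that table. The X-box was searched on both strands as GTNNCCNNNGNAAC, and the word stands below for a match to this pattern. The pattern fixes the spacing of the paired sites. Pairs at another spacing were not counted, for example a closer pair in the windows of Ift57 and Tctn3. It was found 10 times in 9 genes. The sites are printed on the strand of the gene, 5′ to 3′, with up to 8 flanking bases in lower case and the X-box in capitals.
B9d2: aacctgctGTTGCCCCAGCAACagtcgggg
Bbs1: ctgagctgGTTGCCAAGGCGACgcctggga
Bbs4: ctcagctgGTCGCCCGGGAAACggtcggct
Bbs7: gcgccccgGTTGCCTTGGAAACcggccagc
Ift22 site 1: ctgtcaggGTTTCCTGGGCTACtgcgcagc
Ift22 site 2: tgttcccgGTCGCCGTGGAAACtgaccagc
Ift57: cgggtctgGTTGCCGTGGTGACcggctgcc
Mks1: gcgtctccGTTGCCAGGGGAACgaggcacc
Tctn1: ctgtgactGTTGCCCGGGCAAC
Tctn2: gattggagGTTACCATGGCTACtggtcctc

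Every one of the 10 sites lay inside a consensus interval. This is close to what the windows gave with or without an X-box, since 34 of 35 genes had an interval over a RefSeq start. Of 437 other protein-coding genes with an X-box in a window, 372 had one in a window that an interval overlapped. Tctn1 (chr5:122264411-122264424, minus strand) had a palindromic site in which the 6 letters at either end are reverse complements of each other, 36 bases past the RefSeq start. B9d2 (chr7:25680796-25680809), Bbs1 (chr19:4906613-4906626) and Bbs4 (chr9:59353472-59353485) also had their site past the start, within the first 36 bases. The others were upstream, with the last base of the site 11 bases before the start in Mks1, the nearest, and 108 in Bbs7, the farthest. Mks1 (chr11:87853191-87853204), Ift57 (chr16:49699207-49699220), Bbs7 (chr3:36613497-36613510) and Tctn2 (chr5:124598687-124598700) each had 1 match to the pattern. Ift22 had 2, at chr5:136908087-136908100 and chr5:136908117-136908130. The 250 bases before its start are given below with both sites in capitals, beside those of Ift57, which had the highest density among genes with an X-box.
Ift22: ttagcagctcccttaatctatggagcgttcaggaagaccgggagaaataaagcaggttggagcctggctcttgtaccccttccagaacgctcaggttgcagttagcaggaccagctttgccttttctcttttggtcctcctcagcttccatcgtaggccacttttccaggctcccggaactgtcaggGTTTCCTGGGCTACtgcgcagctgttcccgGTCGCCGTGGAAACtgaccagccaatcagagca
Ift57: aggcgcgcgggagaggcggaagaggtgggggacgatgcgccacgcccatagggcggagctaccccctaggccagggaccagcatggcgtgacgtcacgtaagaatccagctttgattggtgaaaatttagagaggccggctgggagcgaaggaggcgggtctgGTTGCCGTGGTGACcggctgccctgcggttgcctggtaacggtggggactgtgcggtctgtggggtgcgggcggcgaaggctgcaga

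The X-box was in the window of 9 of 35 genes (25.7%, 95% Wilson interval 14.2 to 42.1), against 2.50% of 17456 other protein-coding genes and 3.22% of the 11547 of those that had an interval over their window. Transition zone genes had it in 4 of 10 cases, BBSome genes in 3 of 6 and IFT-B genes in 2 of 9. It was in 0 of 2 IFT-A, 0 of 3 motor, 0 of 2 chaperonin-like and 0 of 3 ciliary membrane genes. Those Wilson intervals reach up to 56.1% to 65.8%, so the roles cannot be told apart. Primary cilium genes outside the 39 had it in 8 of 41 windows (19.5%), namely Ahi1, Cep83, Intu, Nphp4, Tmem216, Tmem231, Tmem237 and Ttc26. Motile cilium genes had it in 5 of 22 (22.7%), namely Ccno, Deup1, Hydin, Spag16 and Spag6l. With 1 mismatch allowed, 14 of 35 windows (40.0%) had a match, against 21.2% of other genes. A wider search took 500 bases on either side of the GENCODE gene start. There, 10 of 34 genes (29.4%) had an X-box, against 4.54% of other protein-coding genes. The 34 are the protein-coding members that also had a RefSeq window.

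Other promoter motifs differed less. A single RFX site (GTTGCC, part of many X-boxes) was in 48.6% of the 35 genes and in 14.3% of other genes. The CCAAT box (CCAAT) was in 60.0% against 42.3%, the ETS motif (CCGGAA) in 37.1% against 20.9%, and the NRF1 motif in 11.4% against 7.16%. Among other genes with an interval over the window, the single RFX site was in 14.3% and the CCAAT box in 40.8%. The ETS motif was in 28.7% of those and NRF1 in 10.5%, within the Wilson intervals of the 35 genes (23.2 to 53.7% and 4.54 to 26.0%). The GC box (GGGCGG) was in 54.3% against 49.2%. Among other genes with an interval over the window it was in 69.4%, just within the Wilson interval of the 35 genes (38.2 to 69.5%). Other primary cilium genes had the GC box in 75.6%. The GLI motif (TGGGTGGTC) was in 0 of 35 (Wilson interval up to 9.89%), against 0.212% of other genes. The median GC content was 58.3% and the median ratio of observed to expected CpG was 0.785, against 61.7% and 0.757 in other genes with an interval over the window. A match is a run of letters and not evidence of binding.

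**Figure D1:**
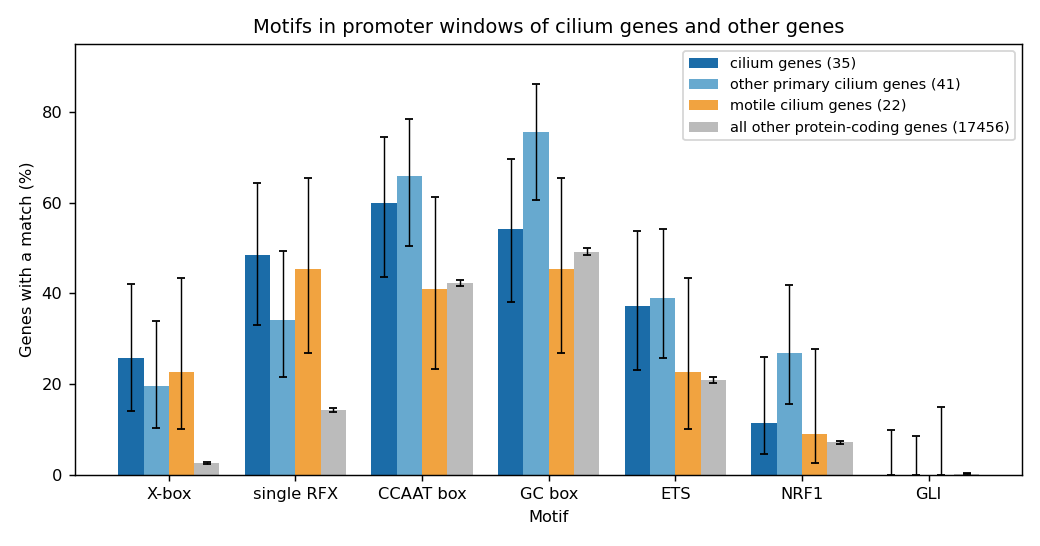
Share of genes (%, vertical axis) with each motif (horizontal axis) in the 300-base RefSeq window, for the 35 cilium genes with a window, 41 other primary cilium genes, 22 motile cilium genes and 17456 other protein-coding genes; error bars are 95% Wilson intervals. The X-box was in 25.7%, 19.5% and 22.7% of the cilium groups and in 2.50% of other genes, and the GLI motif was at 0 in the cilium groups.

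Low and high promoters occurred both with and without an X-box. Among genes with both a window and a TSS interval, the median promoter density was 1164 in the 8 genes with an X-box and 1210 in the 24 without. Genes with an X-box ranged from 295 ± 9.68 in Bbs1 to 2131 ± 70.4 in Ift57. Genes without one ranged from 137 ± 11.8 in Cc2d2a to 3424 ± 87.6 in Rpgrip1l.

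Nearly all promoters of the cilium genes were within an accessible interval. A TSS interval was present in 36 of 38 genes (94.7%, Wilson interval 82.7 to 98.5), against 13500 of 21938 protein-coding genes (61.5%). The median density of the 36 was 1179, with quartiles at 681 and 1801, and the median of all 13500 genes was 884, with quartiles at 505 and 1318. Of the 36, 22 were above the all-gene median, 15 above the upper quartile and 4 below the lower quartile. The median of the 36 was thus 1.33 times that of all genes with an interval. This order depended on the scale. In counts per interval, with no division by length, the ratio was 0.966. With genes lacking an interval kept at 0, the median of the 38 was 1152 ± 25.2. TSS intervals of cilium genes had a median length of 989 bases, against 1229 for all. Density is therefore higher in cilium genes per base, not per interval.

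**Figure D2:**
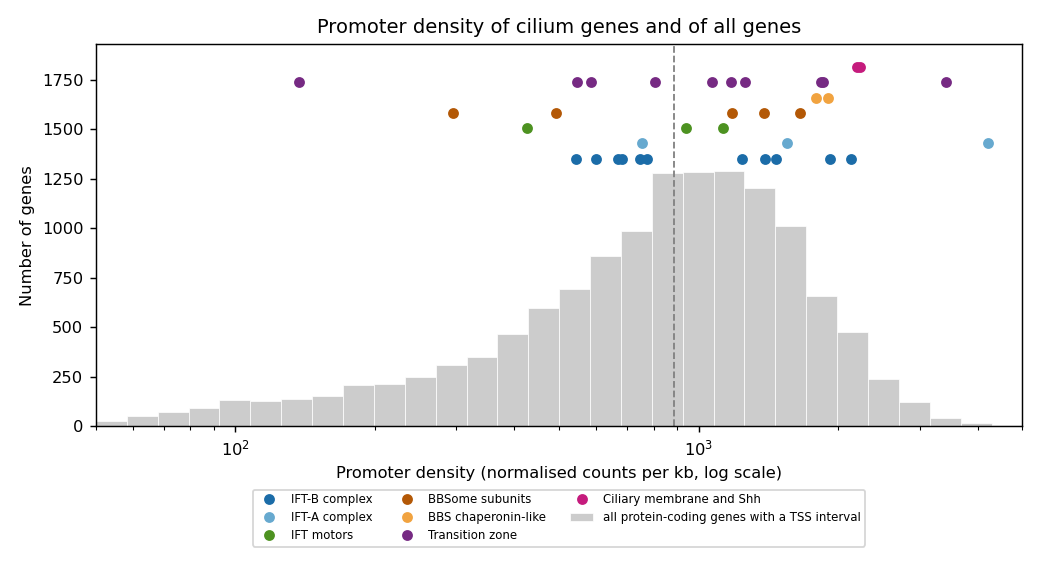
Number of protein-coding genes (vertical axis) by promoter density in normalised counts per kb (horizontal axis, log scale), in grey, with the 36 cilium genes that have a TSS interval as points coloured by role above the bars (the height of the points has no scale) and the all-gene median as a dashed line. The 36 genes spread from 137 to 4219, and 22 lie right of the median of 884.

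Among IFT-B genes, whose products form the anterograde trains, all 11 had a TSS interval and the median density was 775 ± 16.5. Ift57, a peripheral subunit, was highest with 2081 in replicate 1 and 2181 in replicate 2. Ift27, a small GTPase of the complex, followed with 1965 and 1872, Ift20 with 1499 and 1441, Ift172 with 1463 and 1316, and Ift88 with 1231 and 1246. The next 6 genes lay below the all-gene median of 884 in both replicates. Ift74 had 787 and 763, Ift80 773 and 722, Ift52 729 and 639, Ift22 688 and 652, Ift46 618 and 581, and Ift81, the partner of Ift74 in tubulin binding, 537 and 551. By gene starts, 5 IFT-B promoters were above the all-gene median and 6 below it, but Ift46 crossed that line, to 995 ± 0.117, at the interval where its protein-coding transcripts start.

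The IFT-A genes, for retrograde trains and import of membrane proteins, included the most accessible promoter. Ift122 was highest of all members, with 4479 and 4356 counts at chr6:115852900-115853946 and densities of 4280 and 4159. That is higher than 99.9% of genes with a TSS interval. The same interval holds the start of Mbd4, a DNA repair glycosylase gene, and the counts cannot be divided between them. Ift140 had 1592 and 1515 in an interval shared with Cramp1l. Ift43 had 756 and 751, the closest pair of replicates among the members. The motor genes were moderate: Kif3a, a kinesin-2 subunit, had 1109 and 1144, its partner Kif3b 436 and 418, and Dync2h1, the dynein-2 heavy chain, 923 and 955 in an interval shared with Dcun1d5. Replicate ranges of the 3 motor genes did not overlap.

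BBSome genes had a median density of 837 ± 19.8, with 5 of 6 carrying a TSS interval. Bbs4 had 1667 and 1648, Bbs7 1398 and 1367, and Bbs9 1172 and 1193. Bbs5 had 475 and 510 and Bbs1 302 and 288, with means in the lowest quartile of genes with a TSS interval. Bbs2 had no interval over its GENCODE gene start, but the interval at chr8:94097941-94098867 ended 61 bases inside the gene and held 2721 and 2627 counts. Its density was 2885 ± 73.4, and it covers the RefSeq start, which lies 419 bases into the gene. With starts extended by 1 kb the BBSome median was 1282 instead of 837. The chaperonin-like genes, whose products help the BBSome to assemble, were both high: Bbs12 had 1929 and 1877, in an interval shared with Cetn4, and Bbs10 had 1751 and 1831. The replicate ranges of the pair did not overlap.

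All 10 protein-coding transition zone genes had a TSS interval, with a median density of 1123 ± 13.8. Rpgrip1l, a scaffold of the zone, had 3486 and 3362, at chr8:91313012-91313969, in an interval shared with Fto. Promoters on chromosome 8 were higher than elsewhere in these libraries, with a median of 1271 against 882 on the other autosomes, a ratio of 1.44. Within chromosome 8, Rpgrip1l was above 97.4% of genes with a TSS interval. The part of that offset in Rpgrip1l and Bbs2, or in the marker genes Sox1 and Zfp42 on the same chromosome, was not tested. Cep290, which links membrane and microtubules, had 1802 and 1912 in an interval shared with Tmtc3, and Tctn3 had 1813 and 1852 in one shared with Entpd1. Their replicate ranges overlapped.

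The genes of the MKS module, a set of membrane and B9-domain proteins of the gate, were mostly moderate. Tctn1 had 1276 and 1241, Tmem107 1142 and 1211, B9d2 1123 and 1016, Tmem67 837 and 775, B9d1 589 and 581 and Mks1 560 and 534. Cc2d2a was the lowest member with a TSS interval, with 132 and 117 counts at chr5:43662077-43662983 and densities of 146 and 129. At another annotated start of Cc2d2a, 9808 bases downstream (chr5:43672154-43673020), the density was 473 ± 10.1. Tctn2, outside the protein-coding count, had 979 and 994 counts over its gene start at chr5:124598308-124599240 and a density of 1057 ± 10.8, below the 1258 ± 25.2 of Tctn1.

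Arl13b, a GTPase of the ciliary membrane, had 2150 and 2314 (chr16:62846506-62847439), and Tulp3, which brings receptors into the cilium with IFT-A, had 2174 and 2219. Their ranges overlapped, and they were above 96.1% and 95.8% of genes with a TSS interval. Gpr161, an orphan receptor that keeps Shh output low and leaves the cilium when the pathway is active, had no interval over its GENCODE start or over either RefSeq start. The nearest strong interval lay 12.9 kb upstream of the gene start (chr1:165281376-165282865), between genes, with 1431 and 1434 counts and a density of 961 ± 0.868. It had a GC content of 65.0%. Whether it serves Gpr161 was not tested.

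**Figure D3:**
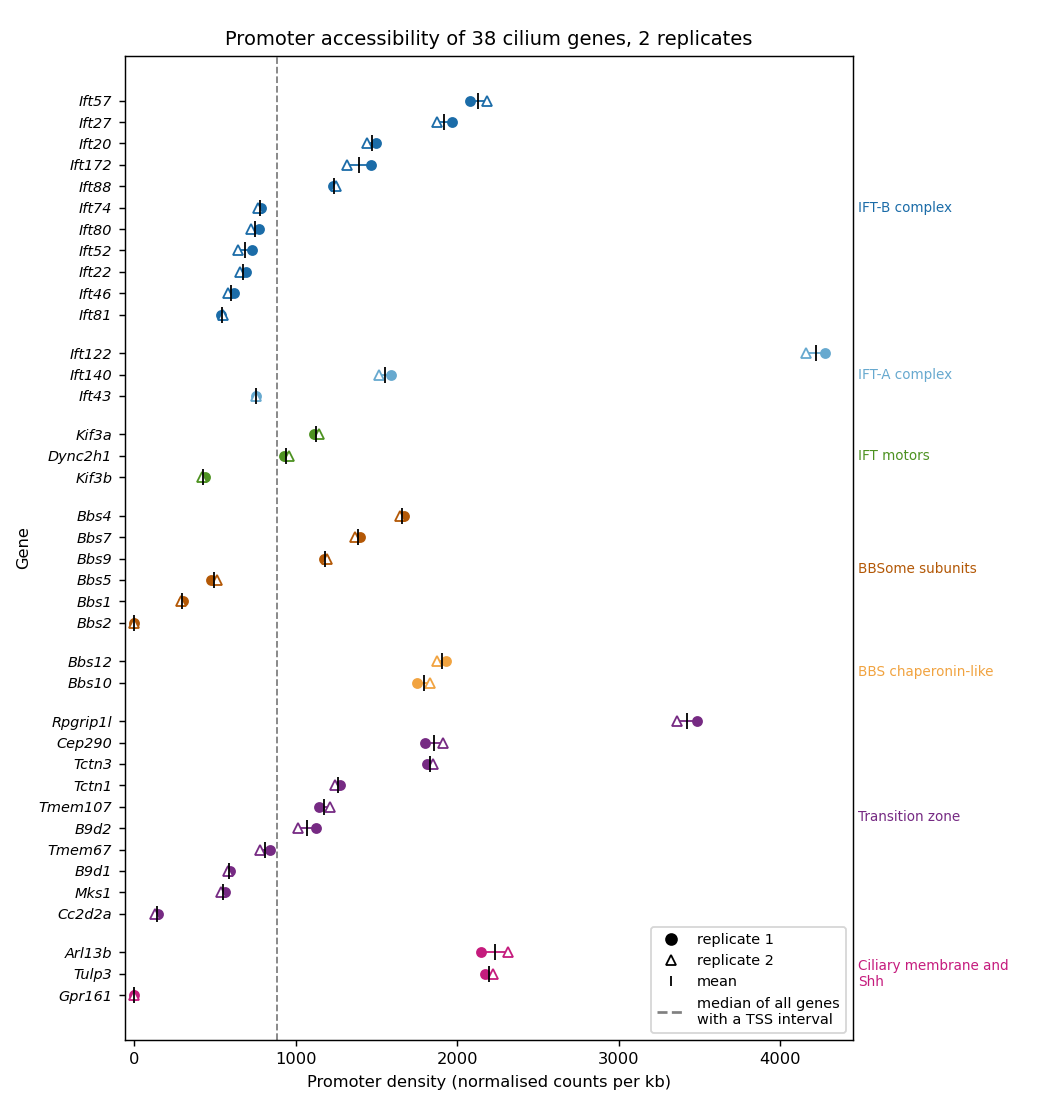
Promoter density of the 38 protein-coding cilium genes in normalised counts per kb (horizontal axis), grouped by role, with replicate 1 as filled circles, replicate 2 as open triangles and the mean as a tick; the dashed line is the median of all genes with a TSS interval (884). Replicates sit close together beside a range of 137 to 4219 between genes, and Bbs2 and Gpr161 are at 0 because no interval overlaps their gene start.

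The order of the levels was firm only over larger steps. The highest density was 30.7 times the lowest, and the coefficient of variation between replicates was 0.393% to 9.24%, with a median of 3.01%. Even so, 18 of the 35 pairs of neighbours in the ranked order had overlapping replicate ranges. Replicate 1 was higher in 23 of the 36 TSS intervals and replicate 2 in 13. Over all TSS intervals, replicate 1 was higher in 68.3%.

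Many members shared a promoter. An interval over the start of a further protein-coding gene was found for 11 of 36 members (30.6%), against 18.6% of all genes with a TSS interval. Beyond those named above, Ift20 shared with Tnfaip1, Ift80 with the condensin gene Smc4, Ift46 with the coatomer gene Arcn1, and Tmem67 with Rbm12b2. The median density was 1554 in the members that shared and 1127 in the 25 that did not, against 1136 and 823 over all genes. Counts cannot be divided between the genes of a shared interval.

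The choice of start mattered for a few genes. Ift46 had 600 ± 26.5 over its gene start and 995 ± 0.117 at chr9:44772624-44773645, where its protein-coding transcripts start. Tmem67 had 806 ± 43.4 at the gene start and 1140 ± 14.6 at a second start 1841 bases downstream. Dync2h1 had 939 ± 22.1 at the gene start and 728 ± 28.8 at chr9:7176523-7177445, which covers the RefSeq start. With RefSeq starts in place of GENCODE gene starts, a choice made after seeing the data, 34 of 35 genes had an interval, and Gpr161 was the exception.

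Most of the signal of these genes was at their promoters. TSS intervals held 76.0% and 75.9% of the counts in member intervals in replicates 1 and 2, against 48.7% and 47.9% over all intervals. There were 101 distal intervals, with a median of 2 per gene. The median was also 2 over all protein-coding genes, but 3 over all genes with a TSS interval. Bbs9 had 16 and Ift57 8, while B9d2, Bbs7, Ift172, Ift20, Ift52, Ift74, Tctn3 and Tmem67 had none (8 of 38, 21.1%, against 27.0% of all genes). The median distal density was 119, against 125 over all distal intervals, and the median distance to the start was 22.0 kb, against 45.5 kb. A mean normalised count over 100 was reached by 26 of the 101 (25.7%, against 32.4%). By annotation, 47 were intronic, 33 intergenic, 13 over coding exons, 5 over noncoding exons and 3 over UTRs. An X-box was in 5 of the 101 (4.95%), against 3.95% of all distal intervals.

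The all-gene promoter median of 884 was exceeded by 4 distal intervals (3.96%, near the 3.12% of all distal intervals). Of these, 3 have been described: those of Bbs2, Ift46 and Gpr161. The fourth, 2.34 kb downstream of the Tmem107 start (chr11:69073149-69074231), overlaps a UTR of Tmem107 and the small nucleolar RNA gene Snord118, and had 1308 and 1233 counts and a density of 1173 ± 49.6. That was as high as the Tmem107 promoter, at 1176 ± 48.4. The fifth highest lay between genes 290 kb upstream of Ift57 (chr16:49408115-49408983), with 697 and 737 counts and a density of 825 ± 32.1. An interval is given to the gene with the nearest start, which need not be the gene it regulates.

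**Figure D4:**
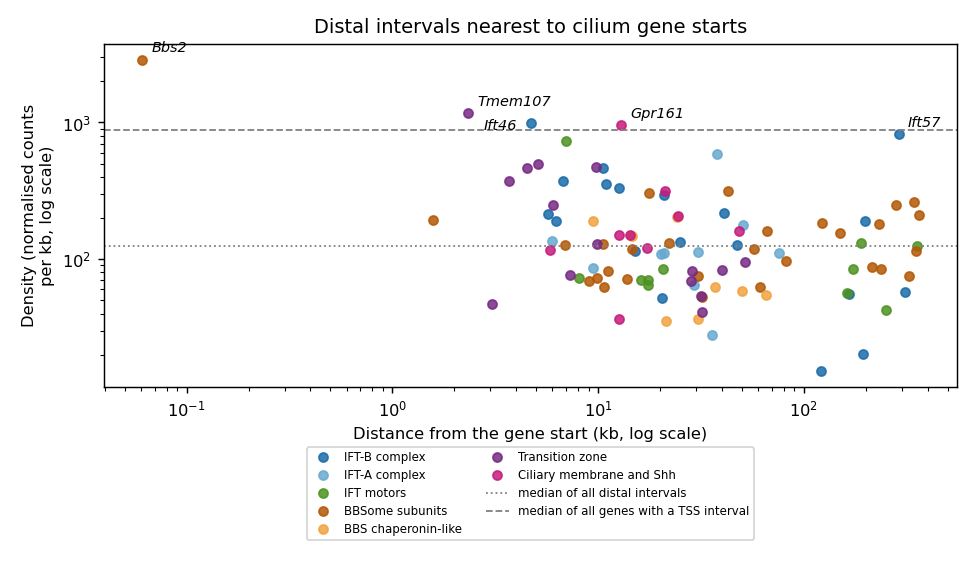
Density of the 101 distal intervals in normalised counts per kb (vertical axis, log scale) against distance from the start of the nearest gene in kb (horizontal axis, log scale), coloured by the role of the gene; the dotted line is the median of all distal intervals (125) and the dashed line the median of all genes with a TSS interval (884). The 5 highest intervals are named, and 4 of them exceed the promoter median.

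The replicates were compared interval by interval to see how far single values can be read. As a description across intervals, which share libraries and are not independent, R2 on the log2(normalised count + 1) scale was 0.985 over the 137 intervals, 0.995 over TSS intervals and 0.960 over distal ones, against 0.968, 0.993 and 0.951 over the whole set. In an exact binomial test between the libraries, adjusted over all intervals by Benjamini-Hochberg, 0 of 137 passed an adjusted p of 0.01, where the whole set also gave 0%. The lowest adjusted p was 0.357 in this exact test. At an unadjusted p under 0.05, 13 of 137 (9.49%) passed, near the 8.39% of the whole set. Among the 62 with a mean normalised count over 100, none was over 2-fold apart (0% of the whole set) and none over 1.5-fold (0.0949% of the whole set). The SD of the log2 ratio in these 62 was 0.10, against 0.14 over the whole set.

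The largest replicate differences among the 62 were small. An intronic interval of Gpr161 (chr1:165320214-165320993) had 144 and 181 counts, 1.25-fold apart, and a distal interval of Tulp3 (chr6:128348848-128350039) had 127 and 151, 1.19-fold apart. A distal interval of Tmem107 (chr11:69066640-69067112) had 188 and 164 counts. Ift52 at its start (chr2:163016725-163017748) had 746 and 655, the largest difference among the TSS intervals at 1.14-fold, and Cc2d2a at its start had 132 and 117. These differences did not pass the adjusted threshold.

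**Figure D5:**
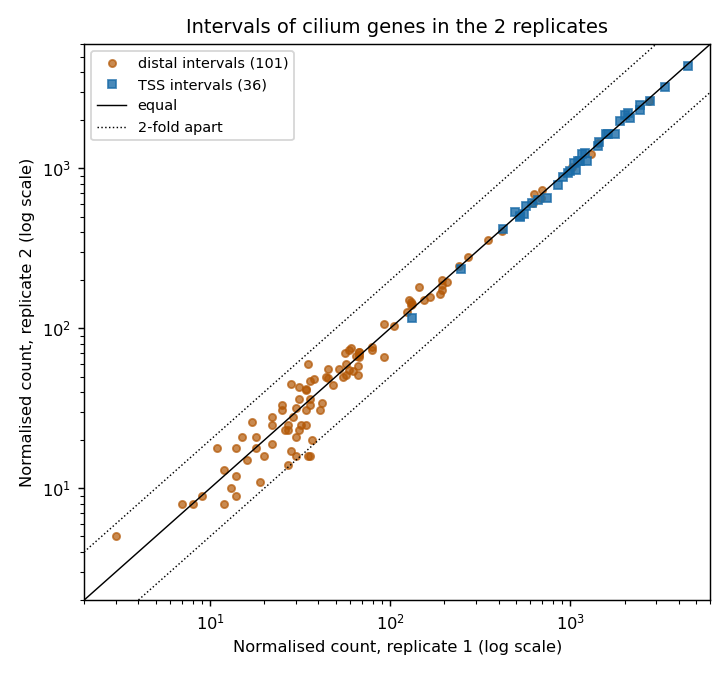
Normalised count in replicate 2 (vertical axis, log scale) against replicate 1 (horizontal axis, log scale) for the 36 TSS intervals (squares) and 101 distal intervals (circles) of the cilium genes; the solid line marks equality and dotted lines 2-fold differences. TSS intervals lie along the line, and the points beyond 2-fold are distal intervals with low counts.

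The wider set of cilium genes was described in the same way. Of 45 other primary cilium genes, 43 had a TSS interval, with a median density among those of 1031. The highest were Tmem218 at 2518 ± 41.2, Wdpcp at 2497 ± 33.5 and Kifap3, the accessory subunit of kinesin-2, at 2362 ± 51.9, and Nphp4 and Tmem17 had none. Of 24 motile cilium genes, which serve beating cilia with dynein arms, 20 had a TSS interval, with a median of 409. Dnaic1 at 2102 ± 99.5, Ccno at 1374 ± 48.2 and Dnah9 at 1336 ± 24.3 were the highest, and Spag17, Tekt1, Tekt2 and Gmnc had none. Multiciliated cell regulators were not at 0, with Foxj1 at 1212 ± 37.4 and Mcidas at 553 ± 18.9. The differences between lists are given as medians, with no test.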

How the data were processed

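The table the authors deposited holds unnormalised counts of fragments. Per the file headers it was made by featureCounts 2.0.1 on read pairs, with each fragment counted in every interval it covered with at least 0.2 of its length. According to the methods, nf-core atacseq 1.2.0 aligned reads to mm10 and MACS called peaks at a false discovery rate of 0.00001, kept if found in 2 libraries. The intervals were defined over 5 libraries, and 3 columns belonging to no sample here were not used. Scaling used size factors from DESeq2 1.42.0 and interval length. A start was the 5′ end of a protein-coding GENCODE M21 gene. A promoter without an interval may hold signal below the calling threshold. The exact binomial test (scipy 1.17.1, statsmodels 0.14.6) compares 2 libraries, not conditions. It was tried on simulated counts with counting error alone, the error it assumes, so that trial says nothing about further variation between libraries. Wilson intervals at 95% are for shares of genes, which are not independent. Reads carried no molecular identifiers, so the binomial test covers counting error only. Motifs were searched with Python 3.11.15. Genes and lists were chosen with earlier results of these data known. Named features are all 39 genes, the 5 densest distal intervals, the 5 largest replicate differences with mean counts over 100, the 3 highest genes and those without a TSS interval in the other cilium lists, and markers; the Ift46, Tmem67, Dync2h1 and Cc2d2a second intervals and the X-box genes of other lists were named after their values were seen. Alternatives covered normalisation (edgeR 4.0.16 TMM), pseudocount, filters, start definition and leaving out each replicate.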

Additional observations from a re-analysis of the deposited data

How the results depend on the processing

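Of 72 alternatives over 16 results, 58 stayed within the replicate spread or within 1.5 times the count. Leaving out either replicate moved none beyond that. The spread came from the same 2 replicates, so this outcome was nearly fixed in advance and says little about stability. The median promoter density of 1152 became 1179 within 1 kb of the start, 1179 over genes with a TSS interval and 1087 in counts per interval. The ratio of medians between members and all genes with a TSS interval, 1.33, became 1.41 within 1 kb and fell below 1, to 0.966, in counts per interval. IFT-B moved from 775 to 995 and the motors from 939 to 851 with all protein-coding transcript starts, and the BBSome from 837 to 1282 within 1 kb, where the Bbs2 interval is included. Intervals over 2-fold apart went from 0 to 2 when means of at least 10 were admitted. The squared correlation of 0.985 became 0.990 with a pseudocount of 10, 0.997 on linear counts and 0.996 for means over 100, and distal intervals went from 101 to 26 under the same filter. Genes with an X-box went from 9 to 14 with 1 mismatch. Adding Tctn2, using RefSeq starts and dropping shared intervals were chosen after seeing the data. With 2 replicates, SDs are rough. No paired analysis was possible because the 2 replicates form a single group.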
